A study of Arabidopsis thaliana with 21 samples.

Results

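A set of 50 genes of the cell division cycle and of DNA replication were followed in the messenger RNA of Arabidopsis thaliana plants with mutations in DXO1. They were picked by locus and comprise cyclins, cyclin-dependent kinases (CDKs), the KRP and SIM/SMR inhibitors of CDKs, E2F transcription factors, MCM helicase subunits, PCNA, ribonucleotide reductase, Aurora kinases and KNOLLE. All 50 had a row among the 33602 genes of the table. DXO1 is, per the series title, an enzyme that takes NAD caps off RNA and works as an exonuclease. The mRNA libraries numbered 9, with 3 each from wild-type Col-0, from the mutant labelled dxo1-1 and from the mutant labelled dxo1-2, all from rosette leaves of plants 16 days old. Plants of every group were germinated on sucrose medium and then moved to soil under long days, and the labels list no further allele or treatment. The labels give neither the kind of lesion in either allele nor whether replicates came from separate plants or cultures, and p-values therefore reflect only how these libraries spread, which may be technical.

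The division cycle is driven by CDKs that are switched on by cyclins. D-type cyclins with CDKA;1 act early, releasing E2F factors that turn on genes for DNA synthesis; A-type and B-type cyclins with the plant-specific B-type CDKs carry the cell into mitosis, and KNOLLE builds the new cell plate at its end. KRP and SIM/SMR proteins bind CDK complexes and hold them inactive. Leaf cells commonly leave the mitotic cycle as they expand and go on copying their DNA without dividing, a program called the endocycle, in which mitotic cyclins and CDKs are kept low while the replication machinery stays in use. These are background statements and not results of the libraries described here.

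Levels are in FPKM, a fragment count corrected for transcript length and library depth, so that levels of different genes can be set beside each other. From the steps between low FPKM values, depth was estimated at 17.5 to 20.7 (in units of 1e+06 fragments) per library and the mean fragment at 320 to 385 bases, 330 and 320 in Col-0 replicates 1 and 3 and 375 to 385 in the other 7 libraries. DXO1 itself (AT4G17620) checks the labels. DXO1 measured 10.04, 11.97 and 10.77 FPKM in the Col-0 libraries, 192.71, 195.46 and 248.56 in those labelled dxo1-1, and 6.67, 5.88 and 7.64 in those of dxo1-2. DXO1 was thus lower than Col-0 in dxo1-2 (log2 -0.63, SE 0.11, adjusted p = 3.54e-04) and, in each library labelled dxo1-1, far higher (log2 4.15, SE 0.11, adjusted p = 5.66e-11), which goes against that label as a loss of the mRNA; a value per gene does not say which part of the transcript was read. The changes below are differences in log2(FPKM + 1), tested with limma over the 18378 genes whose mean reached 1 FPKM; adjusted p-values are Benjamini-Hochberg values over all of these, with 0.05 as the threshold. Fold changes on this scale understate those of low genes. Of all genes tested 75.6% passed against Col-0 for libraries labelled dxo1-1 (49.6% higher, 26.0% lower) and 73.0% for dxo1-2 (51.8% higher, 21.2% lower). The median of all tested genes lay at 0.21 and 0.25, and centring every library on its median moved each change against Col-0 by -0.31 and -0.35. Small rises against Col-0 therefore depend on the scaling, and centred values are given where they change a call.

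Most genes of mitosis were lower in both mutants. CDK inhibitors were higher at 6 of 10 in libraries labelled dxo1-1, near the share of all genes, and at 7 of 10 in dxo1-2, above it. Centred, 4 and 6 of 10 were higher, beside 34.4% and 32.3% of all tested genes. Replication genes were split, with 10 of 11 higher in dxo1-2 when the mutants were set against each other. Of the members 48 passed the filter on low values; CYCB2;1 and SMR5 did not. For libraries labelled dxo1-1 the count was 13 of 48 higher, 21 lower and 14 not passing, with a member median of -0.14 on the log2 scale. For dxo1-2 it was 18 higher, 15 lower and 15 not passing, with a median of 0.10. Members whose 3 libraries all lay above those of Col-0 numbered 13 and 18 in the same order (50.4% and 52.9% of all tested genes), and those whose libraries all lay below it 22 and 15 (26.8% and 22.4%). Lower members thus made up a larger share than among all genes in both comparisons, and higher members a smaller one. After centring, when all genes split into 34.4% higher and 43.5% lower for libraries labelled dxo1-1 and 32.3% and 42.5% for dxo1-2, the member counts were 6 higher and 30 lower, and 10 higher and 23 lower.

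**Figure D1:**
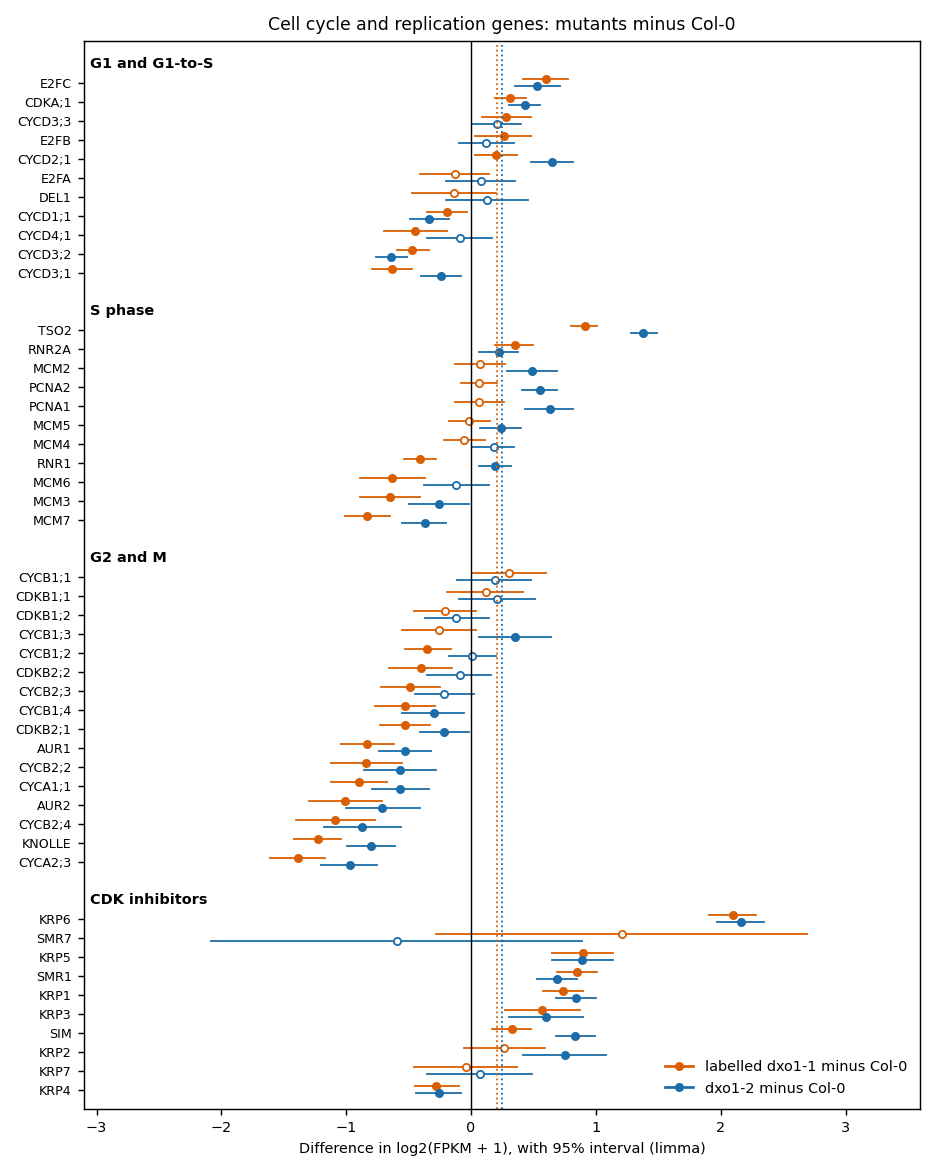
Difference in log2(FPKM + 1) from Col-0 of the 48 members tested, by cycle phase (orange, libraries labelled dxo1-1; blue, dxo1-2; bars, 95% intervals from limma; filled points passed at an adjusted p under 0.05; dotted lines, medians of all tested genes at 0.21 and 0.25). Genes of G2 and M lie mostly left of 0, down to -1.39 for CYCA2;3, and CDK inhibitors mostly right of it, up to 2.16 for KRP6.

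The phases differed in their summed level. The 17 members of G2 and M summed to 107.0 to 120.7 FPKM per Col-0 library, 62.3 to 66.9 in libraries labelled dxo1-1 and 80.6 to 83.2 in dxo1-2. None of these ranges overlap, and Col-0 stood highest. The 11 CDK inhibitors summed to 126.0 to 131.3 FPKM in Col-0, 219.8 to 234.3 and 225.3 to 236.5 in the mutants. Their ranges overlap between the mutants and lie wholly above Col-0. The 11 members of S phase summed to 165.6 to 181.8, 201.8 to 203.6 and 264.2 to 276.6 FPKM in the same order; without TSO2, the most abundant of them, the sums were 127.7 to 143.1, 126.1 to 131.2 and 160.4 to 173.1, so that libraries labelled dxo1-1 no longer stood above Col-0. The 11 members of G1 and the passage to S overlapped across all 3 groups, at 153.3 to 170.8, 155.4 to 157.7 and 159.1 to 169.7. Without CDKA;1, the most abundant of them in the mutants, the sums were 112.3 to 125.3, 101.8 to 104.9 and 105.2 to 108.2, with Col-0 above both mutants. The G2 and M sum divided by the S-phase sum was 0.632 to 0.664 in Col-0 and 0.292 to 0.328 over the 6 mutant libraries. This ratio is taken within a library and does not move when all its FPKM are multiplied by a common factor. It was not computed on centred or quantile-normalized values. The S-phase sum in it includes TSO2, and the sums without TSO2 are those given above. In bulk tissue fewer dividing cells and less of an mRNA per dividing cell cannot be told apart.

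**Figure D2:**
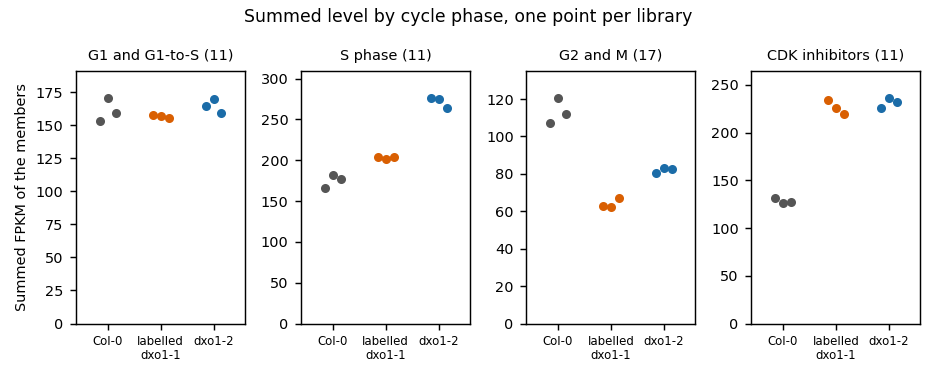
Summed FPKM of the members of each cycle phase (number of members in brackets), 1 point per library, linear axes from 0. G2 and M sums fall from at least 107.0 in Col-0 to at most 83.2 in dxo1-2 and 66.9 in libraries labelled dxo1-1, while sums of CDK inhibitors lie at 219.8 or above in both mutants.

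Among the A-type cyclins both members fell in both mutants. CYCA2;3 (AT1G15570) pairs with CDKB1;1 and restrains entry into the endocycle. CYCA2;3 measured 10.24, 11.12 and 9.82 FPKM in the Col-0 libraries, 3.24, 2.92 and 3.92 in those labelled dxo1-1, and 4.52, 5.31 and 4.61 in those of dxo1-2. All mutant values lie below every Col-0 value, by log2 -1.39, SE 0.10, adjusted p = 2.06e-07 in libraries labelled dxo1-1 and log2 -0.97, SE 0.10, adjusted p = 5.21e-06 in dxo1-2. This was the largest fall of any member in either mutant. CYCA1;1 (AT1G44110), of the group acting around mitosis, moved the same way. CYCA1;1 measured 5, 5.23 and 5.45 FPKM in the Col-0 libraries, 2.57, 1.94 and 2.56 in those labelled dxo1-1, and 3.04, 3.1 and 3.49 in those of dxo1-2. It fell by 0.90 (SE 0.10, adjusted p = 1.04e-05) and 0.57 (SE 0.10, adjusted p = 4.45e-04) on the log2 scale, with no overlap between either mutant and Col-0.

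B-type cyclins, which drive entry into and passage through mitosis, were not uniform: CYCB2;2 and CYCB2;4 fell in both mutants, while CYCB1;1 and CYCB1;3 did not fall in either as deposited. CYCB2;4 (AT1G76310) showed the largest fall of this class. Both CYCB2;4 and CYCB2;2 are low genes, with an estimated 22 to 87 and 26 to 83 fragments per library. CYCB2;4 measured 4.32, 3.96 and 4.37 FPKM in the Col-0 libraries, 1.21, 2.13 and 1.14 in those labelled dxo1-1, and 1.79, 1.95 and 1.82 in those of dxo1-2. The groups are apart (log2 -1.09, SE 0.14, adjusted p = 3.04e-05 for the label dxo1-1 and log2 -0.87, SE 0.14, adjusted p = 1.96e-04 for dxo1-2). CYCB2;2 measured 2.71, 3.94 and 3.14 FPKM in the Col-0 libraries, 1.16, 1.64 and 1.34 in those labelled dxo1-1, and 1.8, 1.96 and 1.8 in those of dxo1-2. CYCB2;2 (AT4G35620) fell by 0.84 (adjusted p = 1.20e-04) and 0.57 (adjusted p = 0.00209). CYCB2;3 fell in libraries labelled dxo1-1 (log2 -0.49, adjusted p = 0.0014), and stood at log2 -0.22 in dxo1-2 without passing (adjusted p = 0.0846; -0.57 and past the threshold when centred). CYCB2;1 was at 0.33 to 0.8 FPKM over the 9 libraries, an estimated 8 to 20 fragments each, and was not tested.

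CYCB1;2 measured 8.34, 9.23 and 8.95 FPKM in the Col-0 libraries, 7.27, 6.06 and 6.91 in those labelled dxo1-1, and 9.62, 8.31 and 8.82 in those of dxo1-2. CYCB1;2 (AT5G06150), the most abundant cyclin of this class, fell in libraries labelled dxo1-1 (log2 -0.35, SE 0.08, adjusted p = 0.00296), but stood at log2 0.01 in dxo1-2 (95% interval -0.18 to 0.20), which became a fall of -0.34 after centring. CYCB1;4 measured 4.55, 5.23 and 4.61 FPKM in the Col-0 libraries, 3.59, 2.56 and 2.93 in those labelled dxo1-1, and 3.4, 3.91 and 3.78 in those of dxo1-2. CYCB1;4 (AT2G26760) fell by 0.53 in libraries labelled dxo1-1 (SE 0.11, adjusted p = 0.00102); its smaller fall in dxo1-2 (log2 -0.30, adjusted p = 0.0274) did not pass without Col-0 replicate 2 or dxo1-2 replicate 1 (adjusted p = 0.0911 and 0.0908). CYCB1;3 (AT3G11520) took opposite signs in the mutants as deposited. CYCB1;3 measured 2.01, 2.11 and 2.47 FPKM in the Col-0 libraries, 1.66, 1.69 and 1.67 in those labelled dxo1-1, and 2.43, 3.85 and 3.01 in those of dxo1-2. In libraries labelled dxo1-1 the values lie below all Col-0 values without passing (log2 -0.26, adjusted p = 0.0995; -0.57 and past the threshold when centred). In dxo1-2 they overlap Col-0, and a call of log2 0.35 (adjusted p = 0.034) was lost without any 1 of 4 libraries, Col-0 replicates 1 and 2 and dxo1-2 replicates 2 and 3, with adjusted p up to 0.147, and stood at -0.01 after centring. CYCB1;1, a widely used reporter of cells in G2 and M that is also known to respond to DNA damage, measured 2.11 to 2.58 FPKM in Col-0, 2.77 to 3.64 in libraries labelled dxo1-1 and 2.24 to 3.3 in dxo1-2. It did not pass in either (log2 0.30 and 0.19, adjusted p = 0.0568 and 0.224, or -0.01 and -0.17 when centred).

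Among the B-type CDKs, which act at the entry into mitosis, the CDKB2 genes fell in libraries labelled dxo1-1. CDKB2;1 measured 9.9, 12.74 and 10.9 FPKM in the Col-0 libraries, 7.48, 6.98 and 7.77 in those labelled dxo1-1, and 8.97, 9.63 and 9.74 in those of dxo1-2. CDKB2;1 (AT1G76540) fell in libraries labelled dxo1-1 (log2 -0.53, SE 0.09, adjusted p = 2.30e-04). All its values there lie below those of Col-0. In dxo1-2 the log2 change was -0.22 (adjusted p = 0.0479), a call that did not hold without any 1 of 8 of the 9 libraries (all but Col-0 replicate 1), where adjusted p ranged up to 0.182. CDKB2;2 fell in libraries labelled dxo1-1 (log2 -0.40, adjusted p = 0.00756) and not in dxo1-2 (log2 -0.09, adjusted p = 0.485). CDKB1;1 stood at 0.12 and 0.21 and CDKB1;2 at -0.21 and -0.12 in the 2 mutants, and neither gene passed. Centring put CDKB2;2 at -0.44 in dxo1-2 and CDKB1;2 at -0.52 and -0.47, all past the threshold, and left CDKB1;1 not passing. The paired B1 and B2 genes are similar in sequence, so how fragments were shared out within a pair is uncertain.

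Aurora kinases and KNOLLE, which act from the spindle to the new cell wall, fell in both mutants. KNOLLE measured 26.19, 28.76 and 25.38 FPKM in the Col-0 libraries, 10.94, 10.02 and 11.61 in those labelled dxo1-1, and 14.99, 13.3 and 16.68 in those of dxo1-2. KNOLLE (AT1G08560), a syntaxin for the fusion of vesicles at the cell plate, thus fell by 1.23 (SE 0.09, adjusted p = 1.63e-07) in libraries labelled dxo1-1 and 0.80 (SE 0.09, adjusted p = 7.42e-06) in dxo1-2, with 3 groups that do not overlap. AUR1 measured 8.01, 8.1 and 7.59 FPKM in the Col-0 libraries, 3.69, 4.05 and 4.25 in those labelled dxo1-1, and 5.92, 5.18 and 4.51 in those of dxo1-2. AUR2 measured 4.76, 6.14 and 5.43 FPKM in the Col-0 libraries, 2.38, 2.13 and 2.09 in those labelled dxo1-1, and 2.78, 3.75 and 2.38 in those of dxo1-2. AUR1 (AT4G32830) and AUR2 (AT2G25880), a similar pair of kinases of the spindle and the cell plate, lay below Col-0 in every mutant library. Their log2 changes were -0.83 and -1.01 in libraries labelled dxo1-1 (adjusted p = 9.95e-06 and 3.43e-05), and -0.53 and -0.71 in dxo1-2 (adjusted p = 4.28e-04 and 5.72e-04). Counted over the phase, 12 of 16 tested genes of G2 and M were lower and 4 did not pass in libraries labelled dxo1-1 (median -0.53); in dxo1-2 9 fell, 1 rose and 6 did not pass (median -0.26). Of all tested genes 26.0% and 21.2% were lower as deposited. Centring gave 14 and 13 of 16 lower, with the rest not passing, beside 43.5% and 42.5% of all tested genes lower.

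**Figure D3:**
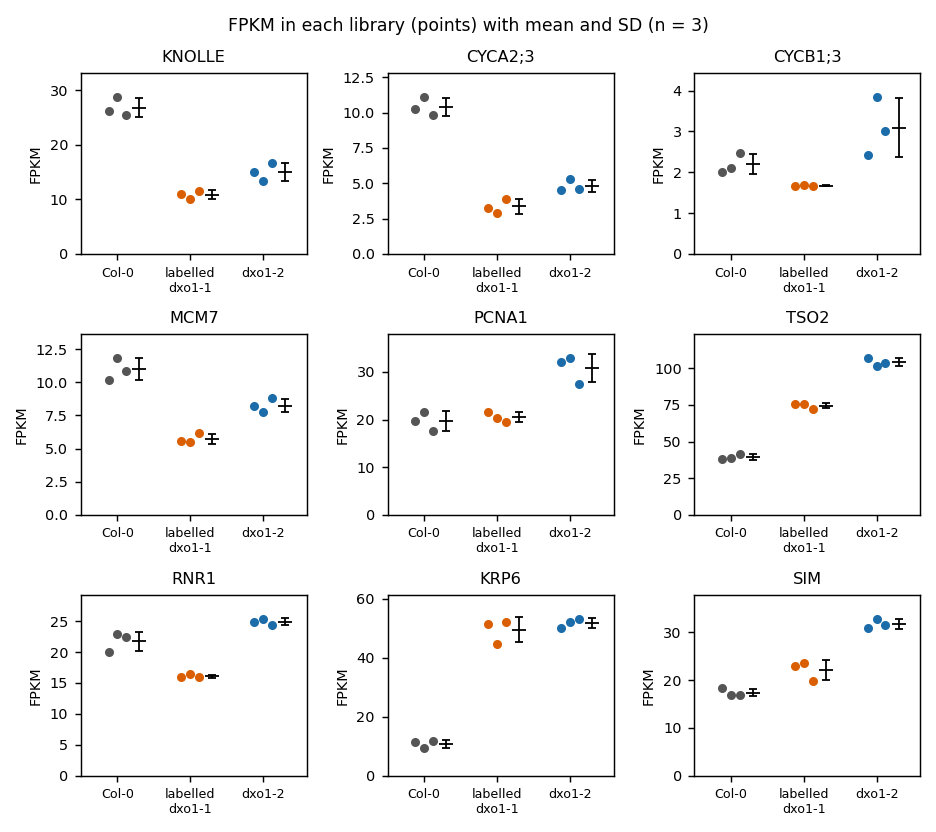
FPKM of 9 members in each of the 9 libraries (points), with group mean and SD (n = 3), on linear axes from 0. KNOLLE and CYCA2;3 are lower in both mutants, KRP6 and TSO2 are higher in both, and PCNA1 is at 27.46 to 33 FPKM in dxo1-2 against 17.52 to 21.66 in the 6 other libraries.

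The MCM helicase, which unwinds DNA at replication forks, was reduced in part. MCM7 measured 10.21, 11.86 and 10.87 FPKM in the Col-0 libraries, 5.57, 5.46 and 6.16 in those labelled dxo1-1, and 8.19, 7.76 and 8.78 in those of dxo1-2. MCM7 (AT4G02060), the most abundant subunit in Col-0, fell in libraries labelled dxo1-1 (log2 -0.83, SE 0.08, adjusted p = 2.39e-06) as well as, by less, in dxo1-2 (log2 -0.37, SE 0.08, adjusted p = 0.00145), and the 3 groups are apart. MCM3 measured 6.46, 7.16 and 8.27 FPKM in the Col-0 libraries, 3.94, 4.31 and 4.53 in those labelled dxo1-1, and 6.12, 6.56 and 5.08 in those of dxo1-2. MCM6 measured 3.83, 4.51 and 5.43 FPKM in the Col-0 libraries, 2.31, 2.48 and 3 in those labelled dxo1-1, and 4.16, 4.16 and 4.04 in those of dxo1-2. MCM3 (AT5G46280) and MCM6 (AT5G44635) fell in libraries labelled dxo1-1, by -0.65 and -0.63 on the log2 scale (adjusted p = 2.06e-04 and 4.94e-04). In dxo1-2 MCM6 did not pass (log2 -0.12, adjusted p = 0.389) but was lower when centred (-0.47) or quantile normalized (-0.38), and the fall of MCM3 (log2 -0.26, adjusted p = 0.0483) was lost in 7 of the 9 fits with 1 library left out (all but those without Col-0 replicate 1 or dxo1-2 replicate 2), with adjusted p up to 0.19. The other subunits did not fall as deposited. MCM2 rose in dxo1-2 from 6.33 ± 0.633 to 9.28 ± 0.375 FPKM (SD, n = 3; log2 0.49, adjusted p = 4.63e-04), and MCM5 by 0.24 (adjusted p = 0.0132). Centring took both out of the calls, at 0.14 and -0.12. In libraries labelled dxo1-1 MCM2, MCM4 and MCM5 stood at 0.07, -0.06 and -0.02 and did not pass, and MCM4 stood at 0.18 in dxo1-2 (adjusted p = 0.0505). When centred these became lower, at -0.24, -0.37 and -0.33, and -0.18 for MCM4 in dxo1-2. Subunits of 1 complex thus moved unequally within the same libraries.

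PCNA, the sliding clamp that holds DNA polymerase on its template, was higher in dxo1-2. PCNA1 measured 19.79, 21.66 and 17.52 FPKM in the Col-0 libraries, 21.59, 20.34 and 19.59 in those labelled dxo1-1, and 32.12, 33 and 27.46 in those of dxo1-2. PCNA2 measured 25.47, 28.65 and 25.23 FPKM in the Col-0 libraries, 28.36, 25.84 and 28.9 in those labelled dxo1-1, and 40.95, 38.53 and 37.97 in those of dxo1-2. For PCNA1 (AT1G07370) and PCNA2 (AT2G29570) every dxo1-2 value lies above the 6 others, which overlap between Col-0 and the libraries labelled dxo1-1. The log2 changes in dxo1-2 were 0.63 (SE 0.09, adjusted p = 5.92e-05) and 0.55 (SE 0.07, adjusted p = 1.54e-05), or 0.27 and 0.20 after centring. In libraries labelled dxo1-1 both stood at 0.06 without passing, and after centring both were lower, at -0.25. The 2 genes have closely similar coding sequences, so their separate levels are uncertain.

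Ribonucleotide reductase supplies the deoxynucleotides for DNA synthesis and repair, from a large subunit (RNR1) and small subunits (TSO2 and RNR2A). TSO2 (AT3G27060) rose most of the replication members. TSO2 measured 37.86, 38.71 and 41.37 FPKM in the Col-0 libraries, 75.45, 75.7 and 72.37 in those labelled dxo1-1, and 107.19, 101.54 and 103.83 in those of dxo1-2. Its 3 groups do not overlap, and dxo1-2 is highest (log2 0.91, SE 0.05, adjusted p = 1.08e-08 in libraries labelled dxo1-1, log2 1.38, SE 0.05, adjusted p = 4.58e-10 in dxo1-2; 0.59 and 1.03 after centring). RNR1 (AT2G21790), whose product needs a small subunit to work, did not follow it. RNR1 measured 19.99, 22.87 and 22.41 FPKM in the Col-0 libraries, 15.9, 16.4 and 15.93 in those labelled dxo1-1, and 24.94, 25.43 and 24.39 in those of dxo1-2. RNR1 fell in libraries labelled dxo1-1 (log2 -0.41, SE 0.06, adjusted p = 7.22e-05). In dxo1-2 it stood higher as deposited (log2 0.19, adjusted p = 0.0142; not without Col-0 replicate 1, adjusted p = 0.0538) and lower after centring (log2 -0.16) or quantile normalization (log2 -0.20), so its direction there depends on the scaling. RNR2A rose as deposited (log2 0.35 and 0.22, adjusted p = 0.00106 and 0.0169) and stood at 0.03 and -0.13 when centred and -0.03 and -0.18 after quantile normalization; its call in dxo1-2 was lost without Col-0 replicate 1 or dxo1-2 replicate 2 (adjusted p = 0.0675 and 0.0724). Over S phase 2 of 11 members were higher and 4 lower in libraries labelled dxo1-1 (median -0.02), and 7 and 2 in dxo1-2 (median 0.22). Centred, the counts were 1 and 9, and 3 and 5. Of all tested genes 49.6% were higher and 26.0% lower in libraries labelled dxo1-1, and 51.8% and 21.2% in dxo1-2. Centred, these shares were 34.4% and 43.5%, and 32.3% and 42.5%. The S-phase median of 0.22 in dxo1-2 lies near the 0.25 of all tested genes.

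In G1 the D-type cyclins, which answer to growth signals such as sucrose and cytokinin, moved in different directions. CYCD3;2 measured 47.18, 51.6 and 47.19 FPKM in the Col-0 libraries, 36.47, 34.89 and 33.47 in those labelled dxo1-1, and 30.72, 32.08 and 30.03 in those of dxo1-2. CYCD3;2 (AT5G67260), the most abundant of them, fell in both mutants with no overlap with Col-0 (log2 -0.47, SE 0.06, adjusted p = 1.33e-05 and log2 -0.64, SE 0.06, adjusted p = 1.07e-06). CYCD3;1 measured 14.12, 16.95 and 15.41 FPKM in the Col-0 libraries, 9.85, 9.65 and 9.34 in those labelled dxo1-1, and 12.57, 12.8 and 13.36 in those of dxo1-2. CYCD3;1 (AT4G34160), a target of cytokinin, fell by 0.63 (SE 0.07, adjusted p = 9.03e-06) and 0.24 (SE 0.07, adjusted p = 0.00992), and all 3 groups are apart. CYCD2;1 measured 11.05, 12.08 and 10.32 FPKM in the Col-0 libraries, 13.26, 11.94 and 13.63 in those labelled dxo1-1, and 17.72, 17.28 and 19.07 in those of dxo1-2. CYCD2;1 (AT2G22490) instead rose in dxo1-2 (log2 0.65, SE 0.08, adjusted p = 1.34e-05, or 0.30 when centred). In libraries labelled dxo1-1 it overlapped Col-0, and a call at log2 0.20 (adjusted p = 0.033) was lost without Col-0 replicates 1 or 3 or replicates 1 or 3 labelled dxo1-1 (adjusted p up to 0.126) and turned to -0.11 when centred. CYCD1;1 was lower in both mutants (log2 -0.19 and -0.34, adjusted p = 0.0306 and 0.00139); the first of these calls was lost without Col-0 replicate 2 or replicates 2 or 3 labelled dxo1-1 (adjusted p up to 0.11). CYCD4;1 fell in libraries labelled dxo1-1 (log2 -0.45, adjusted p = 0.00473) and stood at -0.09 in dxo1-2 (adjusted p = 0.508; -0.44 and past the threshold when centred). CYCD3;3 stood at 0.28 and 0.21; its call in libraries labelled dxo1-1 (adjusted p = 0.0122) was lost without Col-0 replicate 1 (adjusted p = 0.0517) and the value was -0.03 when centred.

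CDKA;1 measured 41.04, 45.48 and 42.06 FPKM in the Col-0 libraries, 52.78, 53.95 and 53.56 in those labelled dxo1-1, and 58.57, 61.48 and 53.88 in those of dxo1-2. CDKA;1 (AT3G48750), the main CDK of the whole cycle, was higher in every mutant library as deposited (log2 0.31 and 0.43, adjusted p = 4.49e-04 and 4.38e-05). Centring brought it to 0.00 and 0.07 and quantile normalization to -0.09 and 0.02, none of which passed. E2FC measured 3.91, 4.13 and 3.72 FPKM in the Col-0 libraries, 6.33, 6.75 and 6.3 in those labelled dxo1-1, and 6.22, 6.58 and 5.57 in those of dxo1-2. E2FC (AT1G47870), usually a repressor among the E2F factors, rose in both mutants with no overlap with Col-0 (log2 0.60, SE 0.08, adjusted p = 4.47e-05 and log2 0.53, SE 0.08, adjusted p = 1.29e-04); centred, it stood at 0.29 and, without passing, 0.18. The activators E2FA and E2FB and the atypical factor DEL1, which delays the endocycle, stayed between -0.14 and 0.26 in both comparisons. Of these only E2FB in libraries labelled dxo1-1 passed (adjusted p = 0.0374), and that call was lost without any 1 of 5 libraries, the 3 of Col-0 and replicates 1 and 3 labelled dxo1-1 (adjusted p up to 0.12), and turned to -0.06 when centred, while centred E2FA and DEL1 passed as lower there, at -0.45 and -0.45. Of 11 members of G1 and the passage to S 5 were higher and 4 lower in libraries labelled dxo1-1, and 3 and 3 in dxo1-2. The shares of all tested genes were 49.6% and 26.0%, and 51.8% and 21.2%. Centred, the members gave 1 and 6, and 1 and 4, beside 34.4% and 43.5%, and 32.3% and 42.5% of all tested genes.

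Of 7 KRP inhibitors 4 rose and 1 fell in libraries labelled dxo1-1 and 5 rose and 1 fell in dxo1-2 (centred, 3 and 1, and 4 and 1), beside 49.6% and 51.8% of all tested genes higher. KRP6 changed more than any other member tested. KRP6 measured 11.37, 9.35 and 11.75 FPKM in the Col-0 libraries, 51.47, 44.67 and 52.21 in those labelled dxo1-1, and 49.9, 51.99 and 53.23 in those of dxo1-2. KRP6 (AT3G19150), like its relatives an inhibitor that binds CDK and cyclin, rose from a mean of 10.8 ± 1.29 to 49.5 ± 4.16 and 51.7 ± 1.68 FPKM (SD, n = 3). The lowest mutant value, 44.67, lies far above the highest of Col-0, 11.75 (log2 2.10, SE 0.09, adjusted p = 1.45e-09 in libraries labelled dxo1-1 and log2 2.16, SE 0.09, adjusted p = 1.53e-09 in dxo1-2). KRP1 measured 12.09, 12.78 and 12.56 FPKM in the Col-0 libraries, 23.88, 20.02 and 20.9 in those labelled dxo1-1, and 21.71, 24.47 and 23.13 in those of dxo1-2. KRP5 measured 2.82, 2.9 and 2.16 FPKM in the Col-0 libraries, 5.51, 6.48 and 5.25 in those labelled dxo1-1, and 5.19, 5.98 and 6 in those of dxo1-2. KRP1 (AT2G23430) and KRP5 (AT3G24810) rose in both mutants with no overlap with Col-0. Their log2 changes were 0.74 and 0.90 in libraries labelled dxo1-1 (adjusted p = 2.79e-06 and 1.95e-05), and 0.84 and 0.89 in dxo1-2 (adjusted p = 1.14e-06 and 2.22e-05). After centring they remained higher at 0.43 to 0.59.

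KRP3 measured 2.29, 1.51 and 1.94 FPKM in the Col-0 libraries, 3.2, 3.5 and 3.24 in those labelled dxo1-1, and 3.18, 2.87 and 4.21 in those of dxo1-2. KRP3 (AT5G48820), a low gene with an estimated 14 to 41 fragments per library, was above Col-0 in every mutant library (log2 0.57, SE 0.14, adjusted p = 0.00253 and log2 0.60, SE 0.14, adjusted p = 0.00205), and did not pass after centring (0.26 and 0.25). KRP2 measured 5.29, 8.71 and 8 FPKM in the Col-0 libraries, 8.96, 7.56 and 10.18 in those labelled dxo1-1, and 13, 12.95 and 12.43 in those of dxo1-2. KRP2 (AT3G50630) overlapped Col-0 in libraries labelled dxo1-1 (log2 0.26, adjusted p = 0.128) and rose in dxo1-2 (log2 0.75, SE 0.15, adjusted p = 8.18e-04, or 0.40 when centred). Col-0 replicate 1, at 5.29, was the lowest of its values. KRP4, the highest of the family in Col-0 at 20.8 ± 0.955 FPKM, was the exception and fell in both mutants (log2 -0.28 and -0.26, adjusted p = 0.00887 and 0.0134). KRP7 stood at -0.04 and 0.07, with 95% intervals of -0.46 to 0.37 and -0.35 to 0.49, and did not pass. In Col-0 KRP4 was above KRP1 and KRP6 on the FPKM scale, and in both mutants KRP6 stood above KRP4 in every library.

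Of the SIM and SMR inhibitors, SMR1 and SIM were well measured and rose, though SIM in libraries labelled dxo1-1 only as deposited. SMR1 measured 55.34, 48.65 and 46.85 FPKM in the Col-0 libraries, 90.61, 99.78 and 83.66 in those labelled dxo1-1, and 80.19, 83.73 and 81.22 in those of dxo1-2. SMR1 (AT3G10525, also LGO), known for starting the endocycle in giant epidermal cells, rose in both mutants with no overlap (log2 0.85, SE 0.07, adjusted p = 8.50e-07 and log2 0.69, SE 0.07, adjusted p = 5.48e-06, or 0.54 and 0.34 when centred) and had the highest Col-0 level of all 50 members. SIM measured 18.29, 16.95 and 16.9 FPKM in the Col-0 libraries, 22.87, 23.6 and 19.81 in those labelled dxo1-1, and 30.92, 32.88 and 31.53 in those of dxo1-2. SIM (AT5G04470), which starts the endocycle in leaf hairs, rose in dxo1-2 (log2 0.83, SE 0.07, adjusted p = 7.60e-07, or 0.48 when centred). In libraries labelled dxo1-1 its log2 change of 0.33 (adjusted p = 0.00127) became 0.01 when centred and -0.02 after quantile normalization. SMR5 and SMR7, known as inhibitors induced by oxidative stress and DNA damage, have annotated lengths of 225 and 303 bases, below the mean fragment of 320 to 385 bases, so their FPKM rest on few usable positions. SMR5 was listed at 0 in all 9 libraries. SMR7 was listed at 0 in 6 of them, at 2.44 in Col-0 replicate 3 and at 5.92 and 5.1 in replicates 1 and 3 labelled dxo1-1, and did not pass (95% intervals -0.28 to 2.69 and -2.08 to 0.89 on the log2 scale). Of 10 tested CDK inhibitors 6 were higher and 1 lower in libraries labelled dxo1-1 (median 0.66), and 7 and 1 in dxo1-2 (median 0.72), beside 49.6% and 51.8% of all tested genes higher. Centred counts were 4 and 1, and 6 and 1, beside 34.4% and 32.3% higher. The share of inhibitors that were higher in libraries labelled dxo1-1 is therefore near that of all genes.

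Set directly against each other, the mutants differed most often in replication genes, with 10 of 11 members of S phase higher in dxo1-2. Mitotic members that passed also stood higher there, but 9 of 16 did not pass. Of the 48 members 22 were higher in dxo1-2 than where the label is dxo1-1, 1 was lower and 25 did not pass (median 0.27), while 38.1% of all tested genes passed, 22.3% higher and 15.7% lower (median 0.06). Members with no overlap between the mutants numbered 25 higher and 2 lower in dxo1-2 (30.4% and 20.6% of all tested genes). This comparison is little touched by scaling, with 21 higher and 2 lower after centring and 20 and 2 after quantile normalization. It compares no Col-0 values, though Col-0 enters its estimate of the spread and the filter on low values. Of 11 members of S phase 10 were higher in dxo1-2 and RNR2A did not pass (log2 -0.13, adjusted p = 0.194). RNR1 differed by 0.60 (SE 0.06, adjusted p = 2.68e-05), with dxo1-2 at 24.39 to 25.43 FPKM and libraries labelled dxo1-1 at 15.9 to 16.4. PCNA1 and PCNA2 differed by 0.56 and 0.49 (adjusted p = 5.78e-04 and 2.21e-04) and TSO2 by 0.48 (adjusted p = 2.36e-05).

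All 6 MCM subunits were higher in dxo1-2, from 0.24 for MCM4 (adjusted p = 0.0286) to 0.51 for MCM6 (adjusted p = 0.00592). The calls of MCM3, MCM4 and MCM5 were lost on leaving out 1 library (MCM3 without replicate 1 labelled dxo1-1 or dxo1-2 replicates 1 or 2; MCM4 without replicates 1 or 2 of either mutant; MCM5 without replicate 1 labelled dxo1-1 or dxo1-2 replicate 3), with adjusted p up to 0.103. Of 16 members of G2 and M 7 were higher and 9 did not pass (median 0.30), beside 22.3% of all tested genes higher. CYCB1;3 differed most, by 0.60 (SE 0.13, adjusted p = 0.00459), followed by KNOLLE (log2 0.43, adjusted p = 0.00304), CYCA2;3 (log2 0.42, adjusted p = 0.00801) and CYCB1;2 (log2 0.36, adjusted p = 0.00684). CYCA1;1, AUR1 and CDKB2;1 also passed, at 0.31 to 0.33, and lost their calls without 1 library (adjusted p up to 0.102): AUR1 without replicates 1 or 2 of either mutant, and CYCA1;1 and CDKB2;1 without replicate 2 labelled dxo1-1 or dxo1-2 replicates 2 or 3.

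Among the G1 cyclins CYCD2;1 and CYCD3;1 were higher in dxo1-2 (log2 0.45 and 0.39, adjusted p = 9.62e-04 and 0.00161). CYCD4;1 was higher (log2 0.36, adjusted p = 0.0335), a call lost without any 1 of the 6 mutant libraries (adjusted p up to 0.0851), and CYCD3;2 was the 1 member lower (log2 -0.17, adjusted p = 0.0325), a call lost without replicates 1 or 2 labelled dxo1-1 or dxo1-2 replicates 1 or 3 (adjusted p up to 0.117). Of the inhibitors SIM was higher in dxo1-2 (log2 0.51, adjusted p = 2.43e-04), and so was KRP2 (log2 0.49, adjusted p = 0.025), though not without dxo1-1-labelled replicates 1 or 2 or any 1 of the 3 dxo1-2 libraries (adjusted p up to 0.0936). KRP1, KRP3, KRP4, KRP5 and KRP6 differed by at most 0.10 between the mutants. For KRP6 the 95% interval of the difference was -0.12 to 0.25 on the log2 scale, beside rises over Col-0 of 2.10 and 2.16.

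**Figure D4:**
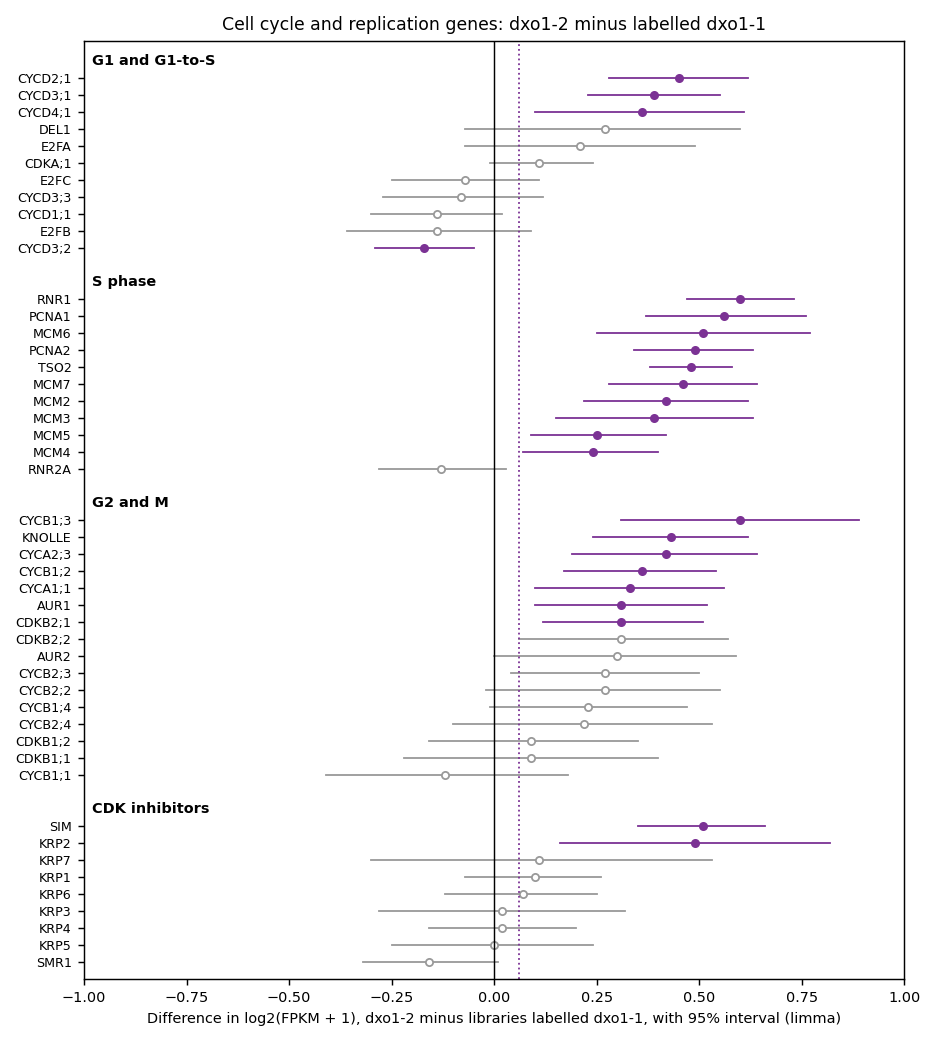
Difference in log2(FPKM + 1), dxo1-2 minus libraries labelled dxo1-1, for 47 members with 95% intervals from limma (filled purple points passed at an adjusted p under 0.05; dotted line, median of all tested genes at 0.06; SMR7, at -1.80 with an interval of -3.29 to -0.31 and an adjusted p of 0.0562, is left out of the plot). Of 11 S-phase members 10 lie right of 0 and passed, and most KRP genes sit near 0.

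Further genes of the same phases were counted beside the members. Further mitotic genes were again mostly lower in libraries labelled dxo1-1. In dxo1-2 lower ones outnumbered higher ones as deposited but were not most. Of all tested genes 49.6% were higher and 26.0% lower in libraries labelled dxo1-1, and 51.8% and 21.2% in dxo1-2. Centred, these shares were 34.4% and 43.5%, and 32.3% and 42.5%. Of 28 tested further genes of G2 and M 17 were lower and 5 higher in libraries labelled dxo1-1 (median -0.69), and 13 and 6 in dxo1-2 (median -0.31); centred, 18 and 1, and 19 and 2. CCS52B, an activator of the complex that destroys cyclins, fell from 6.01 ± 0.641 to 1.63 ± 0.603 and 2.64 ± 0.401 FPKM (SD, n = 3; log2 -1.44 and -0.95). MAD2, of the spindle checkpoint, fell from 13.9 ± 1.06 to 4.74 ± 1.13 and 6.28 ± 1.77 FPKM, and OSD1, which restrains the cyclin-destroying complex, fell by 1.28 and 0.77 on the log2 scale. Of 19 further replication genes 3 were higher and 8 lower in libraries labelled dxo1-1 (median -0.21), and 7 and 1 in dxo1-2 (median 0.14); centred, 2 and 13, and 2 and 10. CDC6, which licenses origins of replication, fell by 1.39 and 0.68, while RNR2B, another small subunit of ribonucleotide reductase, rose by 0.70 and 1.60, and TK1A, a thymidine kinase, by 0.89 and 1.07. Between the mutants 12 of these 19 were higher in dxo1-2 and 7 did not pass, beside 22.3% of all tested genes higher there. Centred, 10 of the 19 were higher in dxo1-2, beside 19.2% of all tested genes. Of 14 further genes of the passage from G1 to S 7 were higher and 4 lower, and 8 and 4 (medians 0.24 and 0.32, beside 0.21 and 0.25 for all genes; centred, 3 and 5, and 3 and 6), with CKS2, a CDK-binding subunit, down by 1.27 and 0.83, the cyclin CYCD4;2 up by 1.04 and 1.20 and the atypical E2F gene DEL3 down by 0.82 and 0.49.

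**Figure D5:**
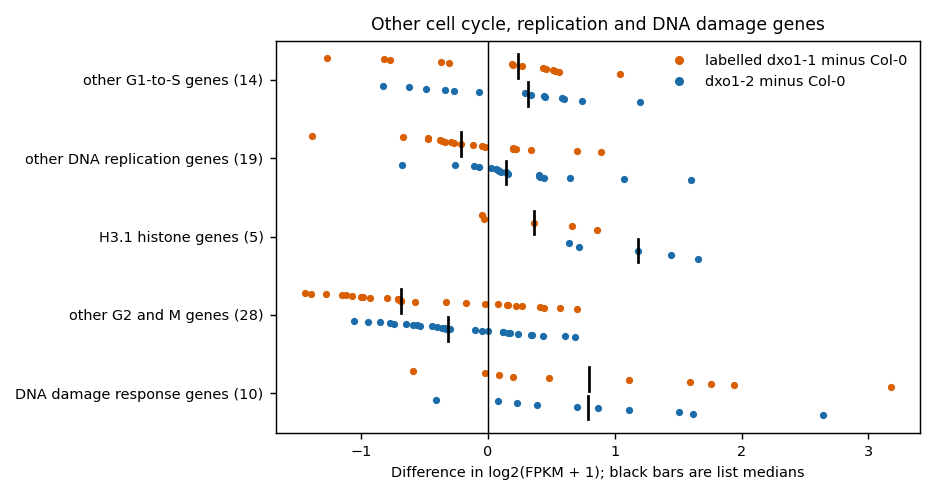
Difference in log2(FPKM + 1) from Col-0 of tested genes on 5 further lists (number of genes in brackets; orange, libraries labelled dxo1-1; blue, dxo1-2; black bars, list medians). The median of other G2 and M genes lies at -0.69 and -0.31, and that of 5 H3.1 histone genes at 0.36 and 1.18.

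Histone H3.1, the form laid down at replication, was higher in dxo1-2 at all 5 of its loci (median 1.18) and at 3 of 5 in libraries labelled dxo1-1 (median 0.36), where centring gave 2 higher and 2 lower. Summed over the 5 loci it measured 589.4 to 716.0 FPKM in Col-0, 783.0 to 808.0 in libraries labelled dxo1-1 and 1278 to 1417 in dxo1-2. These groups do not overlap. The loci are near-identical, so their separate levels are uncertain, while the sum is less so. HIS4, a histone H4 gene, stood at 0.04 in libraries labelled dxo1-1 without passing (adjusted p = 0.52), was lower there when centred (-0.28) or quantile normalized (-0.38), and rose by 1.03 in dxo1-2 (adjusted p = 6.71e-09). Of 10 tested genes of the DNA damage response 6 were higher and 1 lower in libraries labelled dxo1-1, and 7 and 1 in dxo1-2. As deposited 49.6% and 51.8% of all tested genes were higher, near the share of the list in libraries labelled dxo1-1. The list medians were 0.80 and 0.79, beside 0.21 and 0.25 for all tested genes. Centred, 5 were higher and 2 lower, and 6 and 2, beside 34.4% and 32.3% of all tested genes higher. NAC085 and NAC044, factors that act in this response, rose from 0.203 ± 0.11 to 9.93 ± 1.06 and 6.48 ± 0.655 FPKM, and from 0.357 ± 0.117 to 3.6 ± 0.485 and 2.88 ± 0.405. PARP2 rose by 1.94 and 1.62 on the log2 scale. Of 3 further SMR genes SMR4 was higher (log2 1.45, adjusted p = 0.0237) and SMR2 lower (log2 -0.48, adjusted p = 0.0428) in libraries labelled dxo1-1, with values of 1.21 and 0.04 in dxo1-2 (adjusted p = 0.0527 and 0.859). SMR4 was listed at 0 in Col-0 replicate 3 and did not pass when centred.

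Leaf markers were abundant in every library. The 4 mesophyll markers summed to 47560 to 49730 FPKM in Col-0, 29040 to 32460 in libraries labelled dxo1-1 and 32770 to 33340 in dxo1-2. All 4 were lower in each mutant as deposited and when centred, but after quantile normalization 1 was higher and 2 lower in each. Quantile normalization gives the highest values of every library the same levels, so it cannot show a joint fall of the most abundant genes. A list of 9 markers of the shoot meristem and young primordia, where dividing cells are found, summed to 27.4 to 34.0, 29.5 to 33.6 and 31.3 to 37.5 FPKM, which overlap. Of 6 tested 2 were higher and 2 lower in libraries labelled dxo1-1, while in dxo1-2 1 was higher and 5 did not pass; centred, 1 was higher and 3 lower in each. STM, of the meristem, was higher in both (log2 1.44 and 1.35), GRF1, of young leaves, was lower in libraries labelled dxo1-1 (log2 -0.26, adjusted p = 0.0185) and stood at 0.02 in dxo1-2 (adjusted p = 0.856), where it was lower when centred (-0.33), and CLV3, of the stem cells, was at 0 in all libraries. Stomatal lineage markers, from another dividing population of the leaf, summed to 25.1 to 28.7, 26.4 to 30.5 and 32.2 to 32.4 FPKM. Of 4 tested 1 was higher and 3 lower in libraries labelled dxo1-1, and 1 and 2 in dxo1-2 (centred, 1 and 3 in each). Among them TMM fell by 0.81 and 0.23, SPCH stood at -0.59 (adjusted p = 0.011) and -0.30 (adjusted p = 0.15, and -0.66 and lower when centred), and MYB60, of mature guard cells, rose by 1.03 and 1.16. Trichome markers summed to 11.6 to 15.0, 9.73 to 10.97 and 12.3 to 15.3 FPKM, vascular markers to 95.4 to 97.1, 117.0 to 129.1 and 111.4 to 115.5, root markers to 13.3 to 14.7, 18.8 to 19.7 and 15.8 to 17.4, and flower markers to at most 0.48 in any library. By gene, 1 vascular marker was higher and 3 lower of 4 in libraries labelled dxo1-1 and 1 and 2 in dxo1-2, 1 root marker was higher and 1 lower of 2 in each, and 3 of 3 tested trichome markers did not pass in libraries labelled dxo1-1, with 1 higher and 1 lower in dxo1-2. Centred, 3 and 1 trichome markers were lower and the rest did not pass, and in dxo1-2 3 vascular markers were lower and 1 did not pass. Of all tested genes, to set beside these marker counts, 49.6% were higher and 26.0% lower in libraries labelled dxo1-1. In dxo1-2 these shares were 51.8% and 21.2%. Centred, they were 34.4% and 43.5%, and 32.3% and 42.5%. The part of changes in cell makeup in the results on the members was not tested.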

How the data were processed

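The authors deposited FPKM, a normalized level per gene with 1 column per library, matched to samples by the column names in the labels. Per the submitters' processing notes, the tools were TopHat2 2.1.0 and RSEM 2.1.30 on the TAIR10 build, and further settings are not known here. Gene lengths are those of the deposited table. Members were found by locus; members and lists were chosen with earlier results of these data known. RefSeq (TAIR10.1) gave names only: its tags matched 32835 of 33602 genes. List entries that it or the table did not name were left out, which kept 2 of 13 H3.1 and H4 genes and 3 of 10 further SMR genes, and the list of 5 H3.1 loci was added after the data were seen.

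limma 3.58.1 (R 4.3.3, mean-variance trend) was fitted once to log2(FPKM + 1) of the 18378 genes whose mean reached 1 FPKM, over the 3 groups with no replicate block, and tested on simulated data. Intervals are 95% confidence intervals of the difference between group means, based on limma's estimate of the spread between libraries. Unlike the calls, they are not adjusted for the number of genes tested. Values per library are printed for the 30 members that passed with a log2 change of at least 0.5 in any comparison or had the highest mean of their role; of other lists, up to 3 genes with the largest passing change are named. Depth was estimated by fitting whole fragments to low values of genes of 550 to 1300 bases, where 91.1 to 96.5% of the values came within 0.1 of a whole number; it was used for no test. The alternatives were 2 pseudocounts, 2 filters, centring, quantile normalization, 2-group fits, a replicate block and leaving out each of the 9 libraries. Small RNA tables were not used here.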

Additional observations from a re-analysis of the deposited data

Results flagged for a closer look

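In all, 5 members differed between the mutants by at least 0.5 on the log2 scale and passed the direct test of that difference (limma, dxo1-2 minus libraries labelled dxo1-1, n = 3 each). CYCB1;3 differed by 0.60, with changes from Col-0 of -0.26 and 0.35. RNR1 differed by 0.60, between a fall of -0.41 in libraries labelled dxo1-1 and a value in dxo1-2 whose sign depends on the scaling. PCNA1 differed by 0.56, MCM6 by 0.51 and SIM by 0.51. In each of the 5, every dxo1-2 library was above every library labelled dxo1-1, as were 30.4% of all tested genes.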

How the results depend on the processing

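Of 90 member changes that passed over the 3 comparisons, 1405 of 1520 values under the alternatives kept their direction and stayed past the threshold, 100 kept the direction only, and 15 took the other sign, all under centring or quantile normalization. Those with a main change of at least 0.5 all stayed past the threshold except 3 under centring, KRP3 in both mutants and E2FC in dxo1-2.

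Members higher and lower in libraries labelled dxo1-1 numbered 13 and 21; centring left 6 higher and quantile normalization 7. In dxo1-2, against 18 and 15, centring gave 10 higher and 23 lower and quantile normalization 23 lower. Between the mutants the count of lower members was 1, and 2 with centring, quantile normalization or the replicate block. Leaving out 1 library gave 11 to 14 higher and 20 to 22 lower in libraries labelled dxo1-1, 15 to 20 and 12 to 15 in dxo1-2, and 15 to 23 and 0 to 2 between the mutants; 19 changes, none above 0.49, lost their call in at least 1 such fit.

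Signs turned against Col-0 as follows. In libraries labelled dxo1-1 centring put CYCD2;1 at -0.11, CYCD3;3 at -0.03 and E2FB at -0.06, and quantile normalization put CDKA;1 at -0.09, CYCD2;1 at -0.11, CYCD3;3 at -0.04, SIM at -0.02 and RNR2A at -0.03. In dxo1-2 centring put CYCB1;3 at -0.01, MCM5 at -0.12, RNR1 at -0.16 and RNR2A at -0.13, and quantile normalization put MCM5 at -0.07, RNR1 at -0.20 and RNR2A at -0.18. The cause was not tested beyond the shift that each scaling makes.

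Replicate numbers are shared between groups. Deviations from the group mean correlated at -0.03 to 0.09 over genes for same-numbered libraries and at -0.10 to 0.09 for the others. The labels do not say whether a number stands for a shared batch, and this was not tested. With the replicate block 11 members were higher and 21 lower in libraries labelled dxo1-1, 18 and 13 in dxo1-2, and 23 and 2 between the mutants. Low members such as CYCB2;1 and KRP3 rest on few fragments, and SMR5 and SMR7 on almost none.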
